A study of Mus musculus with 75 samples.

Results

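Genes of hepatic iron handling were examined in the livers of male C57Bl/6 mice after maternal exposure to tributyltin (TBT), an organotin compound once used in antifouling paints. The set was taken by gene symbol from the deposited count table and holds 10 of its 55536 genes: the hepcidin genes Hamp and Hamp2, the ligand Bmp6, the iron sensors Tfr2 and Hfe, the uptake genes Tfrc and Trf, the exporter Slc40a1, and the ferritin subunits Fth1 and Ftl1. Up to weaning the mothers' drinking water held vehicle or 3.07 µM TBT, a daily dose of 0.5 mg/kg, and the offspring livers were taken at 3 weeks, 5 months or 10 months for bulk RNA sequencing. All mice were labelled as wild-type males of 1 strain. At 3 weeks there were 7 vehicle and 8 TBT samples. At 5 months the exposed mice carried a risk label, which gave 16 low-risk and 10 high-risk samples beside 8 vehicles; how risk was assigned at this age is not given in the sources used here. At 10 months there were 6 vehicle samples, 5 low-risk TBT samples, 5 samples of uninvolved liver from tumor-bearing high-risk TBT mice, and 7 tumors of such mice. A further 10-month library is labelled as a tumor of a vehicle mouse and entered no comparison. In 2 cases 2 libraries were summed to 1 sample: they carry the same mouse number (a 3-week vehicle), or, for uninvolved livers 3 and 6, their counts were nearly alike, the next closest pair lying much farther apart.

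Iron leaves hepatocytes and macrophages through ferroportin, encoded by Slc40a1, and hepcidin, the peptide hormone encoded by Hamp, closes that exit by driving ferroportin to degradation. Hepatocytes make hepcidin in response to bone morphogenetic proteins (BMPs) released by liver sinusoidal endothelial cells, with BMP6 the ligand that follows iron stores, and to transferrin-bound iron, which is read through TFR2 and HFE. Interleukin-6 raises hepcidin through STAT3. Inside cells, iron regulatory proteins bind stem-loops in mRNAs when iron is scarce: they hold back translation of ferritin and ferroportin and protect the transferrin receptor mRNA from decay.

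The promoters of the hepcidin pair are shown because these genes, close copies of each other, differed in level and in their pattern over the ages. Both lie on chromosome 7 of GRCm38, on the minus strand, Hamp (ENSMUSG00000050440) at chr7:30942368-30944032 and Hamp2 (ENSMUSG00000056978) at chr7:30922372-30924681. Capitals mark the letters GGCGCC, the core of a BMP-responsive element, and TTCTTGGAA, a STAT site, both searched on both strands; the motifs do not overlap. Sequences are from RefSeq (GRCm38.p6), 5′ to 3′, at chr7:30944033-30944279 for Hamp and chr7:30924182-30924431 for Hamp2. The Hamp2 window ends just before the RefSeq start site and lies in an intron of a longer GENCODE transcript. The Hamp window ends 3 bases farther from its RefSeq start site, at the edge of the GENCODE gene.
Hamp: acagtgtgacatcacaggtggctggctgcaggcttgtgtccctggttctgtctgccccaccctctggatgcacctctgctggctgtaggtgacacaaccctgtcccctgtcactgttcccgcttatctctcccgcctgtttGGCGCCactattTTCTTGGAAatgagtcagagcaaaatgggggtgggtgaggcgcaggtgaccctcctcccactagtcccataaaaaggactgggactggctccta
Hamp2: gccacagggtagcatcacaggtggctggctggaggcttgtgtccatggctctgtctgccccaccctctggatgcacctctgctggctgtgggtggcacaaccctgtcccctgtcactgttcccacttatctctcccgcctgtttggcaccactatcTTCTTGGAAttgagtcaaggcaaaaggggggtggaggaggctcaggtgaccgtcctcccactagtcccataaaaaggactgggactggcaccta
The windows align with 227 of 247 paired bases identical (91.9%) and 3 further columns that are gaps. The STAT letters start 97 bases before the RefSeq start site in Hamp and 94 in Hamp2. The letters GGCGCC occur 109 bases before the start of Hamp; at the aligned place Hamp2 differs by the substitution G4A, counted from 1 at the 5′ end of the 6 bases with the Hamp base first. Of 32851 RefSeq promoters of up to 250 bases before the start, 9.586% hold GGCGCC, 0.365% hold TTCTTGGAA and 3 hold both. Of the 10 genes 8 have a promoter entry, and among these GGCGCC was found in 1 and TTCTTGGAA in 2. A match of letters is a description and not a measured binding site.

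Iron-responsive elements found in Fth1, Ftl1, Slc40a1 and Tfrc are shown. They are the stem-loops through which iron acts on these mRNAs after transcription, a step that mRNA counts do not measure for ferritin and ferroportin. Each is printed with its 6-base loop in capitals, from the GENCODE M21 transcripts on GRCm38.
Fth1, 5′ UTR, chr19:9982732-9982760, plus strand: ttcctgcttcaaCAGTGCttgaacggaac
Ftl1, 5′ UTR, chr7:45459779-45459807, minus strand: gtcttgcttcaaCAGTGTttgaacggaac
Slc40a1, 5′ UTR, chr1:45925465-45925493, minus strand: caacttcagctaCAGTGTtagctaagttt
Tfrc, 3′ UTR, chr16:32631219-32631247, plus strand: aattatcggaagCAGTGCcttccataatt
Tfrc, 3′ UTR, chr16:32631598-32631626, plus strand: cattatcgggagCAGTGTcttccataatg
Tfrc, 3′ UTR, chr16:32631663-32631691, plus strand: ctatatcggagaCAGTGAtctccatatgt
Tfrc, 3′ UTR, chr16:32631710-32631738, plus strand: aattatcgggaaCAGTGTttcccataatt
The search covered these 4 genes, 1 transcript each. It asked for the loop letters CAGTG between adjoining stem bases that all pair, G with T allowed, and for a C just ahead of that stem. The outer bases printed were not checked for pairing. Elements with a looser stem, another loop or no such C would be missed. Under this rule Fth1, Ftl1 and Slc40a1 each had 1 element ahead of their coding sequence, and Tfrc had 4 behind it. The remaining members, which were not searched, lie at chr5:137569840-137587481 (Tfr2), chr9:103204001-103230444 (Trf), chr13:23702034-23710854 (Hfe) and chr13:38345107-38500302 (Bmp6).

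The 75 libraries held 2.83 to 45.4 M counts, with a median of 18.1 M, and 6 of them stood apart by a total under 5 M, more than 35000 genes detected or more than 10% mitochondrial counts. Levels are given as scaled CPM (counts per M counts, M being the prefix mega), in which each library's total was multiplied by its TMM factor, a correction for the composition of the library. Under a scale of total counts without that factor the median gene moved by 0.314 (log2) for high-risk against low-risk mice at 5 months, 0.369 for high-risk against vehicle mice, 0.246 and 0.319 for uninvolved liver against low-risk and vehicle livers, 0.295 for tumors against vehicle livers and -0.171 for 5-month against 3-week vehicles. The share of called genes that were higher then went from 52.3% to 86.1%, 53.4% to 93.5%, 52.8% to 78.8%, 54.0% to 82.6%, 54.2% to 89.5% and 49.1% to 22.4% in the same order. For 10-month against 5-month vehicles it went from 47.4% to 62.2%, with a shift of 0.0569. Differences below are relative to the TMM scale, and calls of the 10 genes that the total-count scale changes are named beside them.

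In 10-month vehicle livers all 10 genes were expressed, and hepatocyte markers were abundant in every library (a sum of 134557 to 158287 CPM over 8 genes in this group). Per kilobase of exon, the medians on the scaled CPM scale were 936 for Ftl1, 900.4 for Hamp, 563 for Trf, 188 for Fth1, 116 for Tfr2, 26.3 for Slc40a1, 17.04 for Hfe, 6.22 for Hamp2, 2.92 for Tfrc and 1.92 for Bmp6. Ferritin light chain, hepcidin and transferrin, the plasma iron carrier made by hepatocytes, thus stood at the top, and the transferrin receptor and Bmp6 at the bottom. The ratio of the highest to the lowest of the 9 group medians was 78.6 for Hamp, 4.67 for Tfrc, 3.20 for Hamp2 and 2.69 for Bmp6. It lay between 1.17 (Fth1) and 1.97 (Tfr2) for the other 6 genes. The Hamp medians ran from 10.2 (3-week vehicle) and 12.6 (3-week TBT) over 278 (tumor), 303 (5-month low-risk), 359 (10-month low-risk), 369 (10-month vehicle) and 371 (5-month high-risk) to 616 (5-month vehicle) and 800.5 CPM (uninvolved). Of these neighbours the 3-week pair overlapped, as did each pair in the adult series, and the step from 3 weeks to the rest was the widest. Hamp and Hamp2, and the ferritins and their processed copies, share sequence, so their reads may be split between loci; the most abundant ferritin copy, Ftl1-ps1, reached 20.5 CPM at most.

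**Figure D1:**
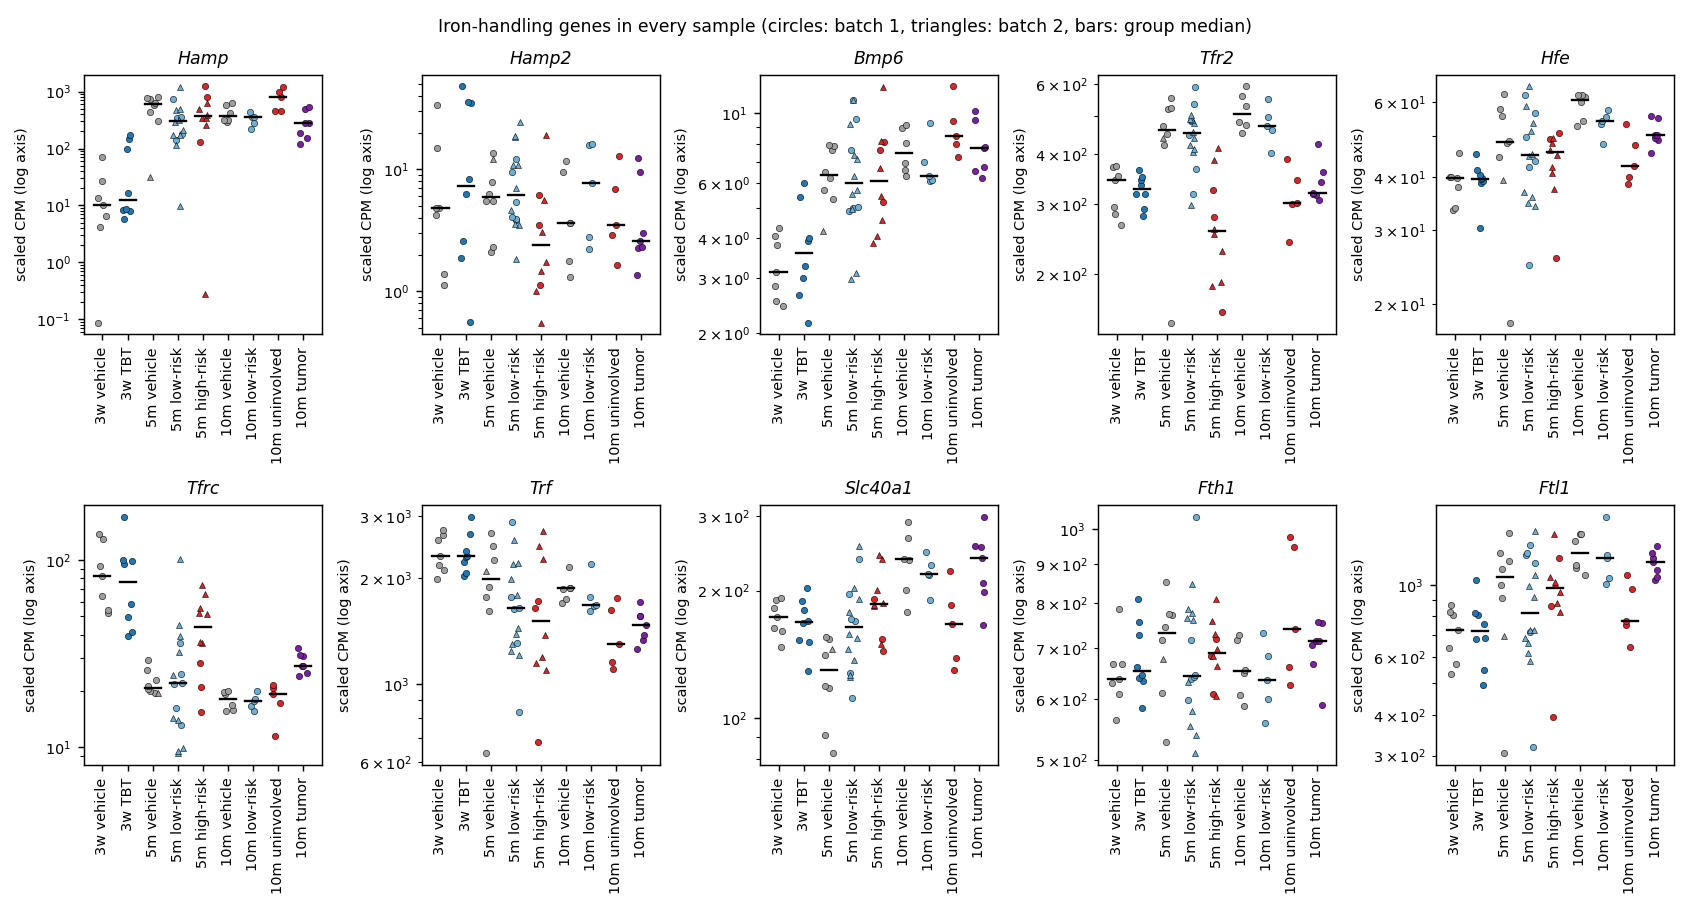
Scaled CPM (log axis) of the 10 genes, 1 panel per gene, in the 9 groups from 3 weeks to 10 months; each point is a sample (circles for sequencing batch 1, triangles for batch 2) and each bar is a group median. Hamp is lowest and Tfrc highest in the 3-week groups by median, and the 7 tumors lie above the other 10-month groups for Tfrc.

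Hepcidin rose between 3 weeks and 5 months in vehicle mice, while the transferrin receptor fell. In the 3-week vehicles Hamp was at 0.0873, 4.27, 6.53, 10.2, 13.8, 26.8 and 70.2 CPM, the lowest of these values being 1 count. In the 5-month vehicles it was at 31.1, 301, 443, 592, 641, 748, 790 and 791 CPM, the lowest value belonging to the single vehicle sample of sequencing batch 2. The 7 batch 1 samples of 5 months all lay above the 7 samples of 3 weeks. Within batch 1 the increase was 5.04 ± 0.71 (log2 fold change ± SE, edgeR adjusted p = 2.77e-05), a 32.9-fold change. In this comparison 4 of the 10 genes passed an adjusted p of 0.05 (2 higher and 2 lower), against 24.2% of all 14962 genes tested (11.9% higher and 12.3% lower). Hamp2, its neighbour, was not called: it ranged from 1.14 to 33.6 CPM at 3 weeks (median 4.79) and from 2.11 to 13.7 CPM at 5 months (median 5.88), a difference of -0.58 (adjusted p = 0.59).

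Bmp6, the iron-responsive ligand, rose as well, from 2.44 to 4.33 CPM (median 3.13) at 3 weeks to 4.24 to 7.90 CPM (median 6.36) at 5 months. The log2 change within batch 1 was 1.02 ± 0.16 (edgeR adjusted p = 5.32e-05). The batch 1 samples of 5 months, at 5.32 to 7.90 CPM, lay above every 3-week sample. The single batch 2 vehicle, at 4.24 CPM, lay inside the 3-week range and was not in this test. Sinusoidal endothelial markers, which mark the cells known to make BMP6, went the other way, and 9 of 10 fell. Their summed level was 718 to 831 CPM at 3 weeks and 322 to 696 CPM at 5 months, the highest being the batch 2 vehicle. Tfrc, the receptor that takes up transferrin-bound iron, fell from 52.0 to 137 CPM (median 82.0) to 19.5 to 29.1 CPM (median 20.8), with no overlap. Its log2 change was -1.94 ± 0.20 (adjusted p = 2.61e-07). Slc40a1, the iron exporter, fell less, from 147 to 192 CPM (median 173) to 82.7 to 155 CPM (median 129.6), a log2 change of -0.48 ± 0.13 (adjusted p = 0.0101) that missed the threshold without a filter on low counts (adjusted p = 0.0554).

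Over the same ages 7 of 9 erythroid markers and all 12 proliferation markers fell in vehicle livers. The summed erythroid level was 452 to 1812 CPM at 3 weeks and 105 to 769 CPM at 5 months, and the summed proliferation level 206 to 376 and 12.4 to 145 CPM. Kupffer cell markers also fell (7 of 10), and 11 of 14 acute phase genes rose, from a sum of 23299 to 31927 CPM to one of 9467 to 108111 CPM. No marker of these lists was at 0 throughout a group. Their part in the changes of Hamp, Tfrc and Slc40a1 was not tested, and in bulk tissue fewer cells of a type and less RNA per cell cannot be told apart.

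Of the remaining genes, Tfr2, Hfe and Ftl1 had log2 differences of 0.42, 0.32 and 0.52 (adjusted p = 0.0643, 0.0936 and 0.0602). All 3 passed the threshold with DESeq2 and without the deviating libraries, each of which raised the number of called genes to 7. A replicate block over 6 shared numbers gave 7 as well. The samples of the 2 ages share only numbers (r of -0.286 to 0.145), so this block is no test of pairing. It also leaves out 5-month vehicle 9, a deviating library. Between 5 and 10 months a single member was called, where 14.1% of all genes were (6.68% higher and 7.41% lower): Slc40a1, with 178 to 290.5 CPM (median 237) at 10 months, rose by 0.89 ± 0.14 (adjusted p = 0.000469). The batch 1 samples of the 2 ages did not overlap. Hamp was at 295, 318, 324, 414, 575 and 638 CPM at 10 months, inside the 5-month range. The 2 age comparisons share the 5-month vehicles.

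At 3 weeks none of the 10 genes passed the test between TBT and vehicle mice by edgeR or DESeq2. None of all 14050 genes did by edgeR (0% called), and 474 of them had an unadjusted p under 0.05, no member among them. Hamp had the widest spread. In TBT mice it was at 5.83, 7.89, 8.22, 8.57, 16.6, 98.9, 148 and 170 CPM. The 3 highest TBT samples thus lay above every vehicle sample, and the other 5 lay inside the vehicle range. The log2 difference was 1.62 ± 1.01, with a 95% interval from -0.35 to 3.59 (adjusted p = 0.999). Tfrc ranged from 39.3 to 171 CPM in TBT mice, wider than the 52.0 to 137 CPM of the vehicles, with medians of 76.6 and 82.0 CPM. The other 8 genes overlapped between the groups over most of their ranges, as for Bmp6, at 2.16 to 6.01 CPM (median 3.59) in TBT mice and 2.44 to 4.33 CPM in vehicles.

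At 5 months the high-risk mice had less mRNA of Tfr2, the hepatocyte iron sensor, than the low-risk mice. Tfr2 ranged from 161 to 414 CPM (median 256) in the 10 high-risk samples and from 297 to 592 CPM (median 451) in the 16 low-risk samples. The groups overlapped, but the high-risk median lay below every low-risk value. The log2 difference was -0.72 ± 0.15 (edgeR with batch as a covariate, adjusted p = 0.000205). Tfr2 was the 1 member called of 10, a share of 10%, against 38.9% of all 14773 genes (20.3% higher and 18.5% lower). Within batch 2 the difference was -0.67 (adjusted p = 0.00277) and within batch 1, with 3 high-risk samples, it was -0.83 (adjusted p = 0.147). Hfe, its partner in sensing, was at 25.7 to 50.7 CPM (median 45.7) in high-risk and 24.8 to 65.4 CPM (median 45.1) in low-risk samples, a difference of -0.07.

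Hamp varied more among high-risk livers than the groups differed. It ranged from 0.277 to 1240 CPM (median 371) in high-risk and from 9.61 to 1225 CPM (median 303) in low-risk samples, the lowest value being 4 counts in high-risk mouse 22. The difference of 0.37 did not pass the test (adjusted p = 0.64), and it was 0.54 without that sample (adjusted p = 0.375). Hamp2 was at 0.554 to 19.2 CPM (median 2.41) in high-risk and 1.83 to 24.2 CPM (median 6.17) in low-risk samples, a difference of -1.02 that missed the threshold with edgeR (adjusted p = 0.0818) and passed it with DESeq2 (adjusted p = 0.0465).

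Tfrc, the receptor for transferrin-bound iron, gave different values in the 2 sequencing batches, a difference that was not tested. In batch 1 the 3 high-risk samples (15.5 to 28.3 CPM) lay within the 6 low-risk samples (13.1 to 36.1 CPM), with a log2 difference of -0.05 (adjusted p = 0.946). In batch 2 the 7 high-risk samples lay at 36.1 to 74.1 CPM, and the 10 low-risk samples at 9.30 to 101 CPM with a median of 19.3, a difference of 0.83 (adjusted p = 0.186). With both batches it was 0.59 (adjusted p = 0.121). Without low-risk mouse 24, the sample at 101 CPM, it was 0.91 (adjusted p = 0.00441), a choice made after its value was seen. On the total-count scale Tfrc (0.93, adjusted p = 0.0103), Slc40a1 (0.47, adjusted p = 0.00423) and Fth1 (0.34, adjusted p = 0.00564) were called higher in high-risk mice, and Tfr2 stayed lower (-0.43). The remaining members had differences of -0.08 (Trf), 0.02 (Bmp6), 0.12 (Ftl1), 0.03 (Fth1) and 0.16 (Slc40a1) on the TMM scale.

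High-risk livers also carried other markers at other levels than low-risk livers. All 8 recruited macrophage and all 12 proliferation markers were called higher and 6 of 10 sinusoidal endothelial markers lower and 1 higher; under total counts the first counts were the same, and the endothelial markers were split into 3 lower and 2 higher. The summed levels were 145 to 640 against 99.5 to 260 CPM for recruited macrophages, 41.8 to 362 against 14.3 to 57.7 CPM for proliferation and 301 to 588 against 362 to 695 CPM for sinusoidal endothelium. Hepatocyte markers, of which 4 of 8 were lower and 1 higher (3 and 1 under total counts), summed to 73520 to 183844 CPM against 95295 to 185295 CPM. No defining marker was at 0 in a group, and the part of these differences in those of Tfr2 and Tfrc was not tested.

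Against the 5-month vehicles, which serve both exposed groups as controls, high-risk mice had lower Tfr2 (-0.69 ± 0.19, adjusted p = 0.0109) and higher Slc40a1 (0.52 ± 0.16, adjusted p = 0.022). These are 2 of 10 members, against 15.8% of all genes (8.47% higher and 7.38% lower). Tfr2 was at 151 to 555 CPM in the vehicles (median 460), the low value coming from vehicle 9, the shallowest library. Slc40a1 was at 144 to 242 CPM (median 186) in high-risk samples and 82.7 to 155 CPM (median 129.6) in vehicles, with some overlap. Neither call held in batch 1 alone (Tfr2 -0.79, adjusted p = 0.282 and Slc40a1 0.40, adjusted p = 0.494) or when low-risk samples were left out of the fit (adjusted p = 0.0647 and 0.0625), and Slc40a1 lost its call without a filter on low counts as well (0.51, adjusted p = 0.133). Batch 2 holds 1 vehicle, so no value within it can be given. Tfr2 also missed the threshold on the total-count scale (-0.35, adjusted p = 0.124), where Slc40a1 (0.89) and Fth1 (0.38) were called higher. Between low-risk mice and vehicles no member was called by edgeR or DESeq2. No gene of 14773 passed by edgeR (0% called), and 934 had an unadjusted p under 0.05, among them Slc40a1 (0.36, p = 0.0159, adjusted p = 0.674).

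**Figure D2:**
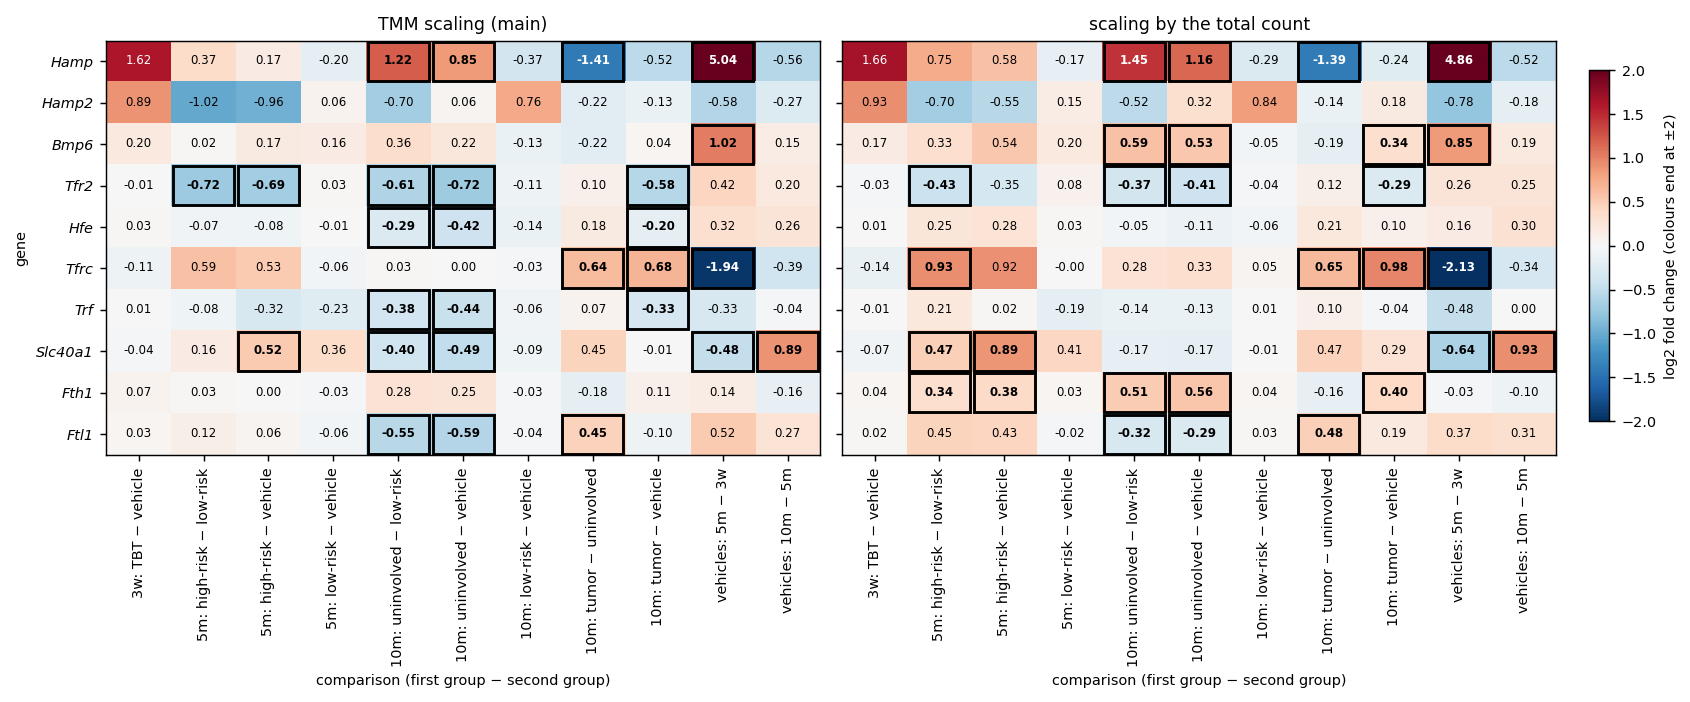
Log2 fold changes of the 10 genes (rows) in the 11 comparisons (columns), colored from lower to higher, on the TMM scale at left and the total-count scale at right; boxes mark an edgeR adjusted p under 0.05. Tfr2 is lower in each comparison of high-risk, uninvolved or tumor tissue with low-risk or vehicle livers (-0.58 to -0.72 on the TMM scale), and on the total-count scale it is called in all of these but high-risk against vehicle mice.

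At 10 months the uninvolved liver of tumor-bearing mice carried more hepcidin mRNA than low-risk liver. The mRNAs of the sensors Tfr2 and Hfe, the exporter, transferrin and ferritin light chain were lower there on the TMM scale. Of these decreases only those of Tfr2 and Ftl1 were called in every alternative run. Hamp was at 461, 462, 800.5, 967 and 1194 CPM in uninvolved and at 220, 283, 359, 363 and 433 CPM in low-risk livers. Every uninvolved sample lay above every low-risk sample. The log2 difference was 1.22 ± 0.28 (adjusted p = 0.00205), and it stayed between 1.02 and 1.45 and past the threshold in all 16 alternatives run for it. Of the 10 members 6 were called, 1 higher and 5 lower, against 52.4% of all 16338 genes (27.7% higher and 24.7% lower). Hamp2 was at 1.64, 2.91, 3.48, 6.86 and 12.96 CPM in uninvolved and at 2.23, 2.79, 7.72, 15.7 and 16.02 CPM in low-risk livers. These ranges overlapped, with a difference of -0.70 (adjusted p = 0.419).

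Tfr2 was at 241, 299.9, 302, 345 and 389 CPM in uninvolved liver and at 403, 460, 471, 497 and 552 CPM in low-risk liver, without overlap. The log2 difference was -0.61 ± 0.12 (adjusted p = 0.00059), called in every alternative run. Hfe, the atypical MHC class I protein that joins TFR2 in sensing, was at 38.5, 40.1, 42.4, 47.5 and 53.3 CPM against 47.8, 53.3, 54.2, 55.3 and 57.4 CPM, a difference of -0.29 ± 0.09 (adjusted p = 0.0131). The Hfe groups overlapped. Its difference was -0.05 on the total-count scale and was no longer called. Bmp6 was at 7.22, 7.98, 8.43, 9.40 and 12.1 CPM in uninvolved and 6.08, 6.14, 6.30, 6.98 and 9.32 CPM in low-risk livers, a difference of 0.36 that missed the threshold on the TMM scale (adjusted p = 0.0655) and passed it on the total-count scale (0.59, adjusted p = 0.00281). The Bmp6 groups overlapped through the highest low-risk sample, that of mouse 9, without which the gene passed the threshold (0.49, adjusted p = 0.0166). It also passed without uninvolved 1 or 7 and with uninvolved 3 and 6 as separate samples (adjusted p = 0.0296, 0.0499 and 0.0496).

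The ferritin subunits, which build the iron storage shell together, had differences of opposite sign. Ftl1 was at 646, 753, 775, 968 and 1068 CPM in uninvolved and 1004, 1052, 1205, 1235 and 1616 CPM in low-risk livers, a difference of -0.55 ± 0.15 (adjusted p = 0.00594) called in all 16 alternatives. Fth1, the subunit with ferroxidase activity, was at 626, 660.4, 741, 946 and 975 CPM against 559 to 733 CPM, a difference of 0.28 (adjusted p = 0.068) that missed the threshold. It was called higher in 6 of 16 alternatives, namely on the total-count scale (0.51, adjusted p = 0.000621), with DESeq2 (adjusted p = 0.0445), with uninvolved 3 and 6 as separate samples (adjusted p = 0.0348) and without low-risk 10, uninvolved 1 or uninvolved 5 (0.34 to 0.38). Trf was at 1102, 1151, 1296, 1624 and 1754 CPM against 1609, 1667, 1679, 1761 and 2190 CPM. Its difference of -0.38 ± 0.13 (adjusted p = 0.0247) was lost in 5 of 16 alternatives, namely without uninvolved 1, 5 or 7, without low-risk 8 and on the total-count scale (-0.14). Slc40a1 was at 130, 139, 167, 184 and 223 CPM against 190 to 247 CPM, a difference of -0.40 ± 0.15 (adjusted p = 0.0281) lost in 7 of 16 alternatives, namely without low-risk 4 or 9, without uninvolved 1, 5 or 12, with uninvolved 3 and 6 as separate samples, and on the total-count scale (-0.17). Tfrc had a difference of 0.03, at 11.4 to 21.5 CPM in uninvolved and 15.6 to 19.9 CPM in low-risk liver.

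Uninvolved liver differed from low-risk liver in macrophage markers as well: 8 of 10 Kupffer cell markers were lower and none higher (6 and 1 under total counts), and all 8 recruited macrophage markers were higher on both scales. Summed Kupffer cell markers were at 211 to 437 CPM in uninvolved and 428 to 546 CPM in low-risk liver, and recruited macrophage markers at 223 to 479 and 117 to 158 CPM. Of 12 proliferation markers 11 were higher, and hepatocyte markers (4 of 8 lower and 1 higher, and 2 and 2 under total counts) summed to 79291 to 111558 CPM against 125446 to 136649 CPM. The uninvolved libraries were also deeper (34.8 to 44.6 against 26.4 to 33.5 M counts) and had more genes detected (24676 to 28715 against 21663 to 22578) and a larger mitochondrial share (4.20 to 5.85% against 2.94 to 3.08%). Kupffer cells are a known site of ferroportin, and no marker on these lists was at 0 in a group. The part of these levels and of these library measures in the differences of Slc40a1, Trf, Ftl1 and Hamp was not tested.

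Set against the 10-month vehicles, the same 6 members were called in uninvolved liver, against 57.7% of all genes (31.2% higher and 26.5% lower), and both comparisons share the uninvolved samples. Hamp was 0.85 ± 0.27 higher (adjusted p = 0.0122), its uninvolved and vehicle ranges overlapping. Tfr2 differed by -0.72 (adjusted p = 7.25e-05), Hfe by -0.42 (adjusted p = 0.000534), Slc40a1 by -0.49 (adjusted p = 0.00699), Trf by -0.44 (adjusted p = 0.00733) and Ftl1 by -0.59 (adjusted p = 0.00235). On the total-count scale Slc40a1, Trf and Hfe lost their call, while Bmp6 (0.53) and Fth1 (0.56) were called higher. Fth1 was called as well without uninvolved 1 or 5 and with uninvolved 3 and 6 as separate samples (0.29 to 0.34). When the vehicle library that carries a tumor label was added to the controls, 3 members were left called, and Hamp (0.50, adjusted p = 0.238), Trf and Ftl1 lost their calls. Between low-risk livers and vehicles no member was called by edgeR or DESeq2. No gene of 16338 passed by edgeR (0% called), and 688 had an unadjusted p under 0.05, no member among them. The Hamp difference there was -0.37 (adjusted p = 1).

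In tumors hepcidin was lower and the transferrin receptor higher than in uninvolved liver. Tumor Hamp was at 123, 156, 186, 278, 280, 495 and 540 CPM, 5 of 7 values below all uninvolved samples. The log2 difference was -1.41 ± 0.38 (adjusted p = 0.0231). Tfrc was at 23.99, 25.04, 27.0, 27.1, 30.7, 31.1 and 33.7 CPM in tumors and 11.4, 17.3, 19.1, 20.8 and 21.5 CPM in uninvolved liver, without overlap. Its difference of 0.64 ± 0.15 (adjusted p = 0.0125) was called in all 20 alternatives, at 0.52 to 0.71. Ftl1 was higher in tumors, at 1036 to 1310 CPM (median 1174), by 0.45 ± 0.13 (adjusted p = 0.0276). Of the 10 members 3 were called, against 18.1% of all 16362 genes (7.55% higher and 10.5% lower).

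Uninvolved liver of the same mouse was also sequenced for 6 of the tumors. In these 6 pairs uninvolved 3 and 6, summed elsewhere for their nearly alike counts, were separate samples. With the mouse as a block Ftl1 lost its call (0.43, adjusted p = 0.0676 over 6 pairs), while Hamp (-1.22, adjusted p = 0.0260) and Tfrc (0.59, adjusted p = 0.0271) kept theirs. Over the 4 pairs without mice 3 and 6 Hamp and Tfrc kept their calls as well. Ftl1 was then at 0.54 (adjusted p = 0.0660) and Slc40a1 was gained (0.76, adjusted p = 0.0214). Single libraries decided these calls: without uninvolved 5 or uninvolved 7 the calls of Hamp (-1.32, adjusted p = 0.0612 and -1.39, adjusted p = 0.0536) and Ftl1 (adjusted p = 0.0786 and 0.0694) were lost and Tfrc alone was left, and without uninvolved 1 or tumor 5 the call of Ftl1 was lost (adjusted p = 0.0724 and 0.0507). Without a filter on low counts Hamp lost its call too (adjusted p = 0.0654). Slc40a1 was at 166 to 299 CPM (median 239) in tumors, a difference of 0.45 that missed the threshold (adjusted p = 0.068). It passed in 4 unpaired alternatives: with DESeq2 (adjusted p = 0.0377), in the fit of all 10-month groups (adjusted p = 0.0126), without uninvolved 3 and 6 (adjusted p = 0.0276) and without tumor 3 (adjusted p = 0.0411).

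Compared with vehicle liver, tumors had higher Tfrc (0.68 ± 0.09, adjusted p = 6.41e-05), the tumor values lying above the vehicle range of 15.5 to 20.002 CPM. They had lower Tfr2 (-0.58 ± 0.10, adjusted p = 0.000232), at 307 to 424 CPM against 451 to 592 CPM, again without overlap. Trf (-0.33 ± 0.09, adjusted p = 0.00828) and Hfe (-0.20 ± 0.06, adjusted p = 0.0168) were lower by less. These 4 of 10 members compare with 45.9% of all 15293 genes (24.8% higher and 21% lower). The Hamp difference of -0.52 did not pass the test (adjusted p = 0.231). On the total-count scale Trf (-0.04) and Hfe (0.10, the other direction) were not called and Fth1 (0.40) and Bmp6 (0.34) were called higher. Adding the vehicle library that carries a tumor label to the controls left Tfrc alone called. The Hfe call, kept in 14 of 20 alternatives, was also lost without vehicle 4 or 7 (adjusted p = 0.0578 and 0.0622), without a filter on low counts (adjusted p = 0.0635) and with a replicate block over 4 shared numbers (adjusted p = 0.0682). All 12 proliferation markers were higher in tumors, at a sum of 19.6 to 204 CPM against 9.19 to 29.2 CPM in vehicles, and 5 of 8 erythroid markers were lower (2 under total counts); against uninvolved liver (20.2 to 140.0 CPM) no proliferation marker was called. Their part in the Tfrc difference was not tested.

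Whether the contrast between high-risk and low-risk liver itself changed from 5 to 10 months was tested as a difference of differences. High risk stands for liver labelled high-risk at 5 months and for uninvolved liver of tumor-bearing mice at 10 months. Age and the tissue sampled thus cannot be told apart. All 10-month libraries are of batch 1, whereas 7 of the 10 high-risk libraries of 5 months are of batch 2. No member was called by edgeR or DESeq2, against 0.353% of all 17572 genes (54.8% of these calls higher, and 30.2% on the total-count scale), and Slc40a1 alone had an unadjusted p under 0.05 (-0.55, p = 0.0195, adjusted p = 0.335). The Slc40a1 difference was 0.16 at 5 months and -0.40 at 10 months. Tfr2 was lower at both ages, with differences of -0.72 and -0.61. The Hamp change between ages was 0.87 (adjusted p = 0.775).

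The hepcidin pair and the ferritin pair were also compared within each sample, as Hamp2 in percent of Hamp and Hamp2 counts and as Ftl1 in percent of Ftl1 and Fth1 counts. Such a share does not depend on the scaling of a library. In 3-week vehicles Hamp2 made up 9.13 to 92.9% of hepcidin counts, with a mean of 42.2 ± 26.1% (SD, n = 7). At 5 months the batch 1 vehicles had a mean of 1.06% (n = 7), with no overlap. The difference of -41.12 percentage points had an exact permutation p of 0.0005828 (2-sided, adjusted p = 0.01282 over 22 share tests). In these vehicles Hamp2 counts were thus a larger part of the hepcidin counts at 3 weeks than at 5 months. The Hamp2 difference itself did not pass the test (-0.58, adjusted p = 0.59). The batch 2 vehicle of 5 months, left out of this share test, had 27.9%, inside the 3-week range. Low-risk 20 (27.0%) and high-risk 22 (66.7% of 12 hepcidin counts) of that age also lay inside it. The 92.9% of 3-week vehicle 2 rests on 14 hepcidin counts. TBT mice of 3 weeks had a Hamp2 share of 25.05 ± 11.2% (SD, n = 8), a difference from vehicles of -17.13 points (exact permutation p = 0.1088, adjusted p = 0.2659). At 10 months the median share was 0.835% in vehicles, 2.08% in low-risk, 0.749% in uninvolved liver and 1.37% in tumors.

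**Figure D3:**
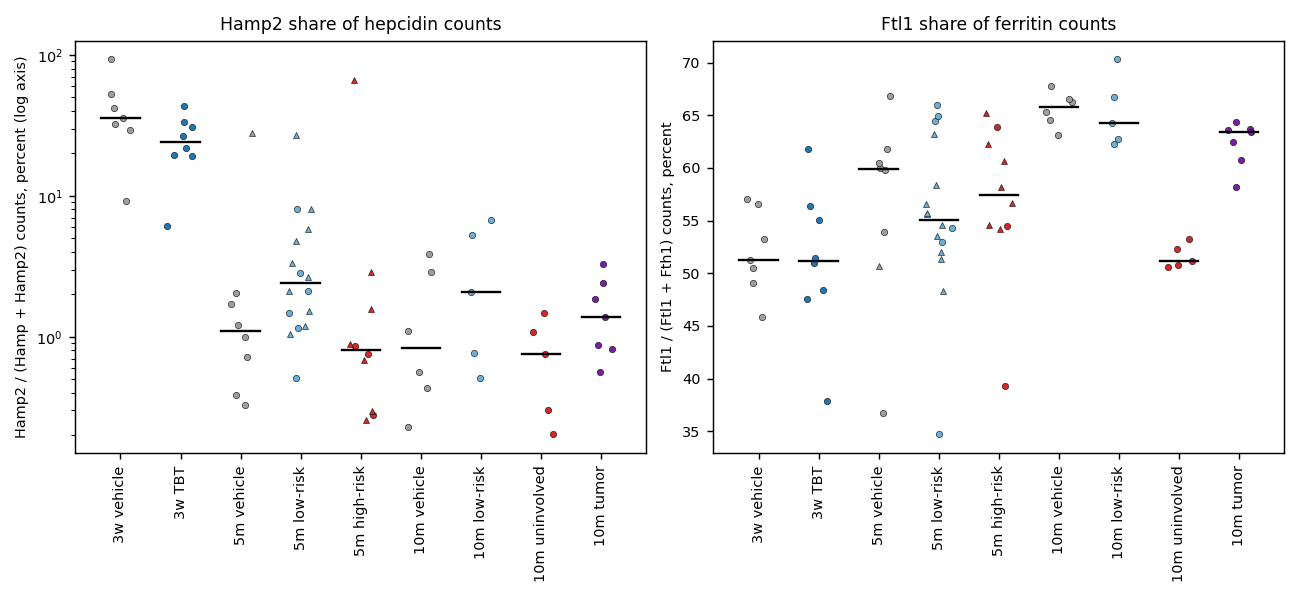
Hamp2 in percent of hepcidin counts (left, log axis) and Ftl1 in percent of ferritin counts (right) for each sample by group; points are samples and bars are group medians. The 3-week groups stand high for Hamp2 by median, and the uninvolved livers, at 50.6 to 53.3%, lie below the other 10-month groups for Ftl1.

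The Ftl1 share separated the uninvolved livers from the other 10-month groups. It was 51.6 ± 1.15% (SD, n = 5, range 50.6 to 53.3%) in uninvolved liver, 65.3 ± 3.30% (n = 5, 62.3 to 70.3%) in low-risk liver, 65.6 ± 1.62% (n = 6, 63.1 to 67.7%) in vehicle liver and 62.4 ± 2.15% (n = 7, 58.2 to 64.3%) in tumors. No uninvolved value overlapped with any other group of that age. The differences were -13.67 points against low-risk liver (exact permutation p = 0.007937, adjusted p = 0.03419) and -13.99 points against vehicle liver (exact permutation p = 0.004329, adjusted p = 0.03175). Tumors were 10.76 points above uninvolved liver (exact permutation p = 0.002525, adjusted p = 0.02778) and 3.234 points below vehicles (exact permutation p = 0.009324, adjusted p = 0.03419), the last with overlapping ranges. The call against vehicles was lost without tumor 1, 3 or 6 (adjusted p = 0.06349) and without vehicle 1, 2, 4 or 7 (adjusted p = 0.07407). With 1 sample fewer in either group the smallest p that the low-risk comparison allows rises, and its adjusted p was 0.0582 in each such test while the difference stayed at -14.41 to -12.41 points. In vehicles the share rose by 8.523 points from 5 to 10 months (exact permutation p = 0.009324, adjusted p = 0.03419), a call lost without the deviating libraries. No comparison of risk groups at 5 months passed. There the share ranged from 34.7 to 66.8% over the 3 groups. The lowest share of each of these groups was that of a library standing apart: 34.7% in low-risk 16 (11.2% mitochondrial counts), 36.7% in vehicle 9 (2.83 M counts in all) and 39.3% in high-risk 15 (14.5% mitochondrial counts). The vehicle library with a tumor label had a share of 30.6% and 14.1% mitochondrial counts. At 10 months the uninvolved livers had 4.20 to 5.85% mitochondrial counts, against 2.64 to 3.83% over the other 3 groups. The part of these library measures in the Ftl1 share was not tested.

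Across 72 samples and 9511 genes, the genes whose log2(CPM + 1) was most like that of Hamp were Id2 (Pearson r = 0.86), Atoh8 (0.759), Bmp6 (0.752), Slc10a2 (0.702) and Id3 (0.696). Id2 and Id3 encode inhibitors of basic helix-loop-helix factors and, like the transcription factor Atoh8, are known BMP targets; Slc10a2 encodes an apical bile acid transporter. These values describe samples that share ages and batches. Over the 57 samples without the 3-week mice Id2 (0.752), Atoh8 (0.697) and Id3 (0.631) were still the 3 most alike, whereas Bmp6 (0.452) came 9th and Slc10a2 (0.394) 26th. Id2 was at 44.1 to 84.3 CPM in 3-week and 103 to 233 CPM in 5-month vehicles, and at 125 to 228 CPM in uninvolved against 132 to 180 CPM in low-risk livers.

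**Figure D4:**
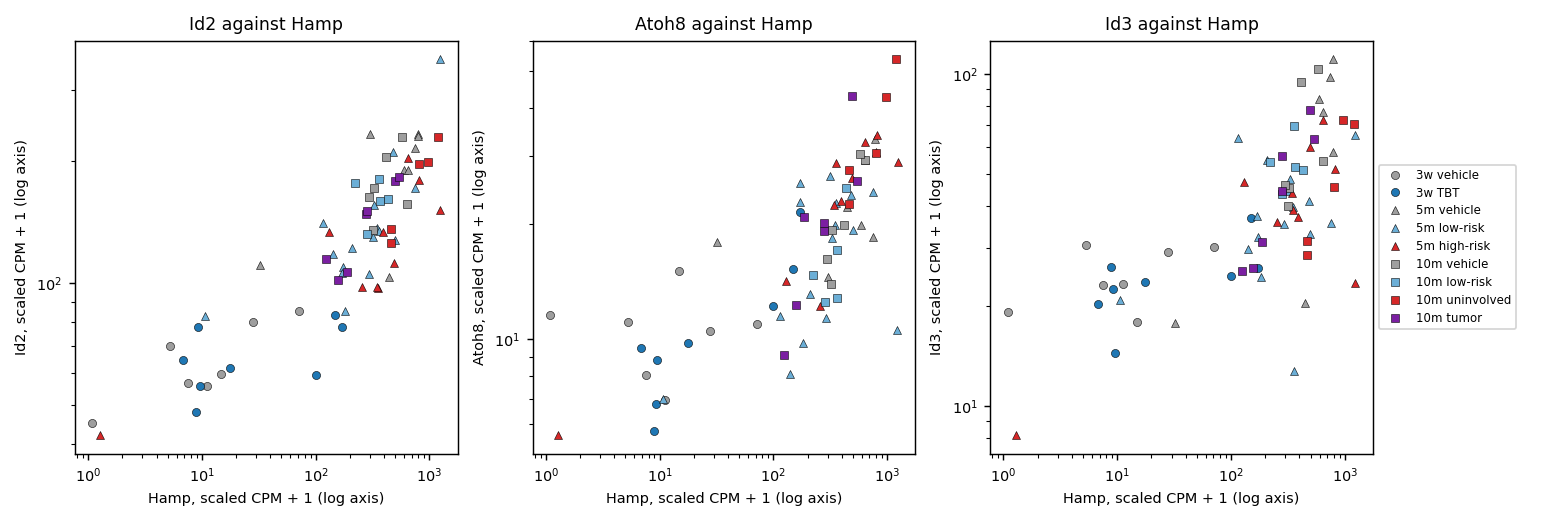
Id2, Atoh8 and Id3 against Hamp (scaled CPM + 1, log axes), 1 point per sample, colored by group. Most 3-week samples lie at the lower left of each panel.

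For Tfrc the most alike genes were Slc22a27 (0.814), Akr1c18 (0.81), Sult2a1 (0.804), Sparc (0.796) and Cyp2b9 (0.793), which without the 3-week mice had r of 0.637, 0.64, 0.554, 0.618 and 0.612. For Bmp6 they were Csad (0.768), Pkp4 (0.763), Hamp (0.752), Cyp2c38 (0.737) and Aox1 (0.736). Without the 3-week mice these had r of 0.611, 0.587, 0.452, 0.512 and 0.498, and Hamp came 28th. Among the 10 genes themselves r was taken over all 72 samples, the 3-week mice included. The highest r was that of Hfe with Ftl1 (0.858), and the lowest those of Tfrc with Bmp6 (-0.61) and with Hamp (-0.578). Hamp and its copy Hamp2 had an r of 0.2.

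The wider iron pathway was followed in 8 lists, with at most 2 named genes per list and comparison. Their counts stand beside the background given above for each comparison: 52.4% of all genes were called in uninvolved against low-risk liver, 38.9% in high-risk against low-risk mice, 45.9% in tumors against vehicles, 18.1% in tumors against uninvolved liver and 24.2% in vehicles of 5 months against 3 weeks. A share near these values says nothing particular about a list. BMP target genes (9 genes) were called higher, and none lower, in several comparisons. In 5-month against 3-week vehicles Id1, Id2, Id3 and Atoh8 rose and none fell, with a list median of 0.82 (0.02 over all genes). Id2 was 1.64 ± 0.16 higher (adjusted p = 1.16e-07) and Atoh8 1.27 ± 0.23 (adjusted p = 0.000251). In uninvolved against low-risk liver 6 of 9 rose and none fell, with a median of 0.69 (0.05 over all genes). Atoh8 was 1.15 ± 0.27 higher (adjusted p = 0.00263), at 21.5 to 52.7 CPM against 11.5 to 23.7 CPM, and Smad7, which encodes an inhibitory SMAD, 0.85 ± 0.25 (adjusted p = 0.0103). In 5-month high-risk against low-risk mice 5 rose and none fell (median 0.56), with Smad6 at 0.56 and Bambi at 0.74 (adjusted p = 0.0093 and 0.00152), while Hamp did not pass the test there. In tumors against uninvolved liver 1 fell, Smad9 (-0.64, adjusted p = 0.0416). These counts became 4, 7, 7 and 0 on the total-count scale, with no reversal.

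The BMP and SMAD regulators of hepcidin (20 genes, 18 or 19 tested) did not move one way. In uninvolved against low-risk liver 2 were higher and 7 lower of 19 tested, close to the 52.4% of all genes called, which became 6 and 1 on the total-count scale. Bmp2, an endothelial BMP ligand, was lower in high-risk than in low-risk mice at 5 months (-0.68 ± 0.12, adjusted p = 3.45e-05) and in uninvolved than in low-risk liver at 10 months (-0.50, adjusted p = 0.000472). Its levels were 8.92 to 16.6 against 13.5 to 26.04 CPM at 5 months and 12.5 to 15.9 against 17.6 to 21.5 CPM at 10 months, the latter without overlap. Fkbp1a, which encodes the type I receptor binder FKBP12, was higher in the same comparisons, by 0.84 and 0.92 (adjusted p = 3.10e-05 and 1.21e-05). Of the 7 tested genes of the interleukin-6 and STAT3 arm 3 rose in 5-month against 3-week vehicles, among them Socs3 (1.84, adjusted p = 0.0079) and Stat3 (0.66, adjusted p = 0.012), which became 1 higher and 2 lower on the total-count scale. In uninvolved against low-risk liver 1 was higher and 2 were lower, and under total counts 3 were higher and none lower.

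Heme synthesis genes (10 genes) were called lower, and none higher, where high-risk, uninvolved or tumor tissue was compared with low-risk or vehicle liver on the TMM scale, which the total-count scale did not keep: 7 of 10 in high-risk against low-risk mice (median -0.47), 3 of 10 in high-risk against vehicle mice (median -0.43) and 6 of 10 in uninvolved against low-risk liver (median -0.34), uninvolved against vehicle liver (median -0.36) and tumors against vehicles (median -0.31). The share of all genes called lower was 18.5%, 7.38%, 24.7%, 26.5% and 21% in the same order. Under total counts the list had 1 higher and 3 lower, 0 and 0, 2 and 3, 3 and 3, and 3 and 3. Alad and Urod, enzymes of the early and middle steps of the pathway, fell by 0.56 and 0.62 in uninvolved liver (adjusted p = 3.44e-05 and 4.56e-05). Alad was at 60.1 to 80.6 CPM there and at 95.7 to 106 CPM in low-risk liver. Of the 10 iron sensing and ferritin turnover genes 6 were lower and 1 higher in uninvolved liver (median -0.42), and 3 and 2 on the total-count scale. Ncoa4, the receptor that carries ferritin to the lysosome, was at 78.5 to 92.4 CPM against 110 to 122 CPM, a difference of -0.43 ± 0.07 (adjusted p = 7.57e-05), and it was 0.33 higher in tumors than in uninvolved liver (adjusted p = 0.0424).

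Among heme and hemoglobin scavenging genes (12 genes) Cd163, the macrophage receptor for haptoglobin-bound hemoglobin and also a Kupffer cell marker, was lower at both ages. It was at 0.625 to 1.45 CPM in uninvolved and 20.2 to 33.8 CPM in low-risk liver, a difference of -4.51 ± 0.24 (adjusted p = 2.70e-09). At 5 months it was at 0.431 to 10.8 CPM in high-risk and 18.3 to 42.4 CPM in low-risk mice (-3.20, adjusted p = 1.54e-05). The list itself had 2 genes higher and 3 lower at 10 months and 3 higher and 5 lower at 5 months; on the total-count scale it had 3 and 3, and 4 and 1. Of 16 iron-sulfur cluster genes 9 were lower and 1 higher in uninvolved liver (2 higher and 3 lower on the total-count scale), with Glrx5 at -0.82 and Fdx1 at -0.79, and 6 were higher and none lower in tumors against uninvolved liver, with Glrx5 at 0.50 (adjusted p = 0.00856).

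Iron uptake, reduction and export genes (17 genes, 14 or 15 tested) were split. In uninvolved against low-risk liver 3 were higher and 3 lower, and in tumors against vehicles 6 were higher and 4 lower (7 and 2, and 8 and 0, on the total-count scale). Lcn2, a carrier of bacterial siderophores and an acute phase gene, was at 23.5 to 439.5 CPM in tumors and 0.955 to 21.8 CPM in vehicles, without overlap (4.37 ± 0.87, adjusted p = 0.00119). Scara5, a ferritin receptor, rose from 1.61 to 6.11 CPM in 3-week vehicles to 15.04 to 98.2 CPM at 5 months (4.32 ± 0.33, adjusted p = 7.75e-09). At 3 weeks between TBT and vehicle mice, between low-risk and vehicle mice at either age, and in the difference of differences, no gene of the 8 lists was called by edgeR.

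**Figure D5:**
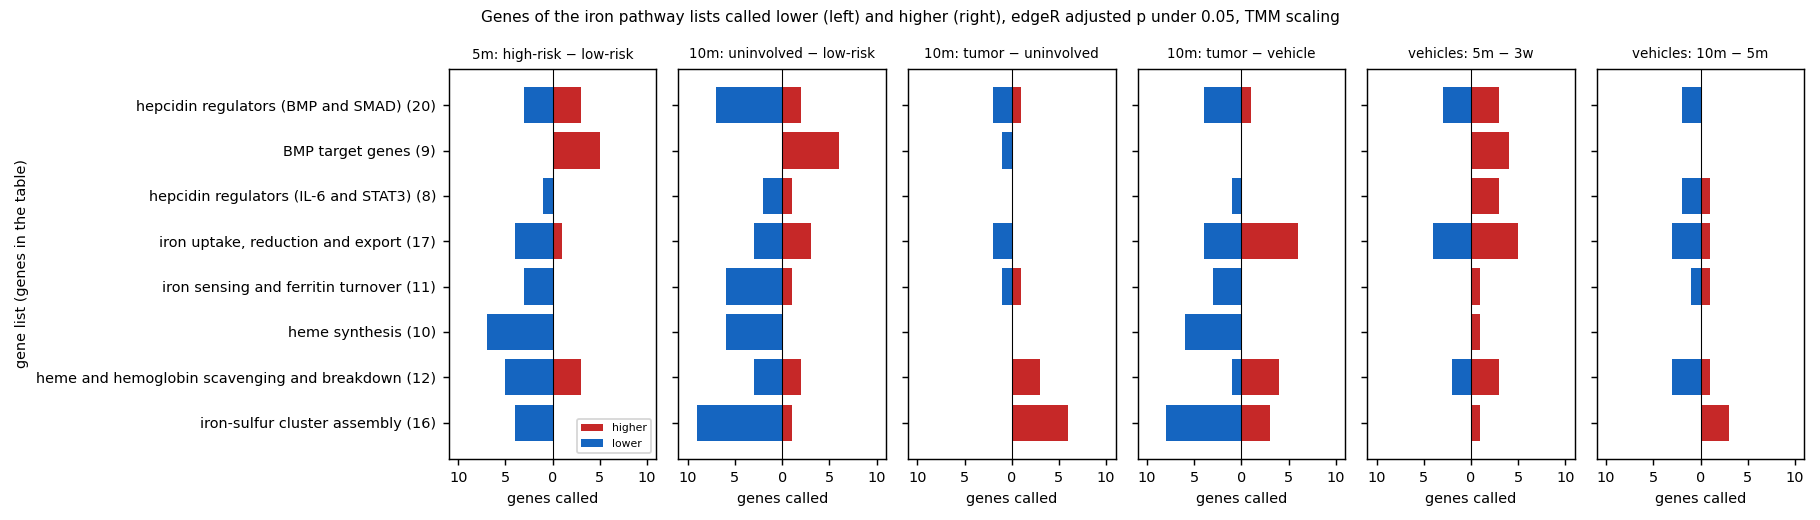
Number of genes called higher (right of 0) and lower (left of 0) at an edgeR adjusted p under 0.05 for the 8 pathway lists in 6 comparisons, on the TMM scale. BMP targets are called higher and not lower in the vehicle age comparison and in high-risk or uninvolved against low-risk liver, and heme synthesis genes lower and not higher in the latter comparisons, where total counts give both directions.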

How the data were processed

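Gene counts, adjusted for sequencing batch with ComBat-seq as the deposited file is labelled, were used as deposited by the authors; the adjustment settings, the strand setting and the gene annotation are not given in the sources used here. Libraries were made from DNase-treated RNA with a stranded total RNA kit, per the labels' protocols, and the submitters' processing notes name Trim Galore, HISAT2, featureCounts and the mm10 genome. The 10 genes and all gene lists were chosen with earlier results of these data known.

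Counts of 2 libraries with 1 mouse number, and of uninvolved livers 3 and 6 (chi-square per degree of freedom 3.481, against 13.5 for the next closest pair), were summed. The former, of 3-week vehicle 3, were summed by label alone. They had 13.5% and 2.86% mitochondrial counts, the first standing apart. By the same chi-square the second was closest to vehicles 6 (14.9) and 7 (17.6) of that age, not to the first. Groups were compared with edgeR 4.0.16 in R 4.3.3 (TMM, filterByExpr, robust quasi-likelihood), with Benjamini-Hochberg adjustment over all genes tested and a threshold of 0.05. The groups of an age were fitted together, with batch as a covariate at 5 months; each tumor comparison used its 2 groups, and ages were compared in batch 1 vehicles. Log2 fold changes carry edgeR-based standard errors. Shares were compared with exact permutation tests over samples (100000 resamples where a group had 10 or more) in SciPy 1.17.1. Likeness was Pearson's r of log2(CPM + 1). The fits were tested on simulated counts. All 10 genes are described; from each list at most 2 genes per comparison were named, those with the smallest adjusted p at a mean of at least 5 CPM, and for likeness the 5 highest r. Within a group each sample is taken as 1 mouse, so p-values measure the spread between these samples. Tumor and uninvolved liver share 6 mice, and the main fit treated these samples as unpaired. The mothers were the ones exposed, and litter entered no fit. Samples from the same mother would thus count as separate.

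Same-numbered samples were checked for pairing by the correlation of their deviations from the group means. Uninvolved liver and vehicles shared 4 numbers with r of 0.104 to 0.163, but these samples are of different mice and are not pairs. A block over these numbers is thus no test of pairing. Tumor and uninvolved liver share 6 mice (r of -0.397 to 0.717). Alternatives were DESeq2 1.42.0, RLE size factors, total counts as the scale, no filter on low counts, other sets of samples, single batches, leaving out each 10-month sample and the deviating libraries, and replicate blocks.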

Additional observations from a re-analysis of the deposited data

Results flagged for a closer look

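The 10 genes and both shares in the 8 groups of 5 to 10 samples gave 96 groups of values. The 16 low-risk samples of 5 months were not screened. In these groups 13 values from 10 samples stood apart from their own group, 13.5% of the groups. The rule flags about 1 in 20 groups where values are normally distributed. Whether these values are was not tested, and the groups share samples, so no excess over chance can be read from this. At 3 weeks vehicle 6 had the highest Hamp (70.24 CPM, next 26.84) and Hamp2 (33.62 CPM, next 15.07), TBT mouse 1 the highest Tfrc (170.9 CPM, next 99.84) and TBT mouse 6 the lowest Hfe (30.24 CPM, next 38.77). Among 5-month high-risk mice number 17 had the highest Hamp2 (19.16 CPM, next 6.18) and Bmp6 (12.05 CPM, next 8.143), and number 15, a library with more than 10% mitochondrial counts, the lowest Hfe (25.68 CPM, next 37.36) and Ftl1 share (39.32%, next 54.24%). High-risk mouse 22 had a Hamp2 share of 66.67% (next 2.893%), which rests on 4 Hamp counts, and 5-month vehicle 8, the batch 2 vehicle, one of 27.9% (next 2.046%). Vehicle 9 of that age, the shallowest library, had the lowest Tfr2 (151.0 CPM, next 420.8). At 10 months low-risk mouse 8 had the highest Trf (2190 CPM, next 1761) and low-risk mouse 9 the highest Bmp6 (9.324 CPM, next 6.982).

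The 10-month library labelled as a tumor of a vehicle mouse, used in no comparison, had Hamp at 1194 CPM (6 vehicle livers up to 638.1), Tfrc at 23.77 CPM (up to 20.002) and Fth1 at 1165 CPM (up to 728.7). It held 11.5 M counts, 14.06% of them mitochondrial. It is a single sample with no replicate.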

How the results depend on the processing

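Over single genes 1492 recomputed values kept their side of the threshold, and those of them without a call may have changed sign. Another 41 gained a call, 45 lost one and 2 that were called in the main fit changed sign. The latter are Tfr2 in 5-month high-risk against vehicle mice with a replicate block over 3 shared numbers (0.0907) and Hfe in tumors against vehicles on the total-count scale (0.10). The number of called members was 1 in high-risk against low-risk mice and became 2 with DESeq2, 4 on the total-count scale, 0 in batch 1 alone and 2 without low-risk mouse 24. For high-risk against vehicle mice it was 2 and became 1 without a filter, and 0 in batch 1 alone, in the fit of the 2 groups and with the replicate block. For tumors against uninvolved liver it was 3 and became 5 in a fit of all 10-month groups. Adding the vehicle library with a tumor label to the controls, it went from 6 to 3 (uninvolved liver) and from 4 to 1 (tumors). For 5-month against 3-week vehicles it went from 4 to 7 with DESeq2, without deviating libraries and with a replicate block over 6 shared numbers. Leaving out each 10-month sample gave 5 to 7 (uninvolved against low-risk liver), 6 to 7 (against vehicles), 1 to 4 (tumors against uninvolved liver) and 3 to 4 (tumors against vehicles).

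As a difference of medians, with adjusted p of 0.139 to 0.143, the Hamp2 share of 5-month against 3-week vehicles was -34.96 points, and the Ftl1 share was -13.11 (uninvolved against low-risk liver), -14.68 (against vehicles), 12.31 (tumors against uninvolved liver), -2.368 (tumors against vehicles) and 5.844 points (10-month against 5-month vehicles). Leaving out single samples gave Ftl1 share differences of -14.41 to -12.41 for uninvolved against low-risk liver and -3.726 to -2.546 for tumors against vehicles, where 7 of these lost the call. Without deviating libraries the Ftl1 share of vehicles was 7.514 points higher at 5 months than at 3 weeks (now called) and 5.128 points higher at 10 than at 5 months (no longer called). The causes were not tested, other than that fewer samples raise the smallest p an exact test allows.

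For tumors and uninvolved liver of the same mice, the block changed no other call than those of Ftl1 and Slc40a1 given above. Other groups share only numbers, so a block over them is no test of pairing: r lay between -0.286 and 0.578. Of all values with a block 81 kept their side of the threshold, and those of them without a call may have changed sign. Another 4 gained a call, 4 lost one and 1 that was called without the block changed sign. Depth limits Hamp at 3 weeks, where 1 sample had 1 count, and the Hamp2 share with it. The batch adjustment was made before deposit, so its effect on counts was not tested.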

Other observations

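Hamp and Tfrc at 3 weeks were compared after their values had been seen to spread widely in the same groups. Over all 15 samples of that age Pearson's r of log2(CPM + 1) was -0.444 (permutation p = 0.0973, adjusted p = 0.158 over 3 relations) and Spearman's rho was -0.493 (permutation p = 0.0643, adjusted p = 0.193). Without the 2 samples farthest from the median Hamp it was -0.328 (n = 13). Within the 7 vehicles r was -0.133 (exact permutation p = 0.758) and rho -0.25 (exact permutation p = 0.595), and within the 8 TBT mice r was -0.61 (exact permutation p = 0.106) and rho -0.571 (exact permutation p = 0.151). None of these relations passed a threshold of 0.05.

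Vehicle livers also changed between 5 and 10 months outside the 10 genes. Of 14 acute phase genes 9 fell and none rose, from a sum of 9467 to 108111 CPM to one of 22389 to 33208 CPM, with a list median of -1.31. Steap4, a metalloreductase of the iron uptake list, fell by 3.18 on the log2 scale (edgeR adjusted p = 0.00198), and Fgl1, a hepatokine that binds BMP ligands, fell by 1.38 (adjusted p = 0.0326). Gpc3, a cell surface glypican of the BMP and SMAD list and a marker of fetal liver, was at 27.1 to 44.4 CPM in 3-week vehicles and 1.23 to 4.14 CPM at 5 months, a difference of -3.86 ± 0.21 (adjusted p = 2.26e-11). At 5 months it was at 0.903 to 30.6 CPM (median 10.5) in high-risk and 0 to 11.9 CPM (median 2.35) in low-risk mice and was called higher there.

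The other marker lists read beside the iron genes were stellate cells and B and plasma cells. In high-risk against low-risk mice at 5 months 6 of 9 stellate markers were higher and 1 lower (summed level 608 to 1448 against 354 to 752 CPM), and in uninvolved against low-risk liver 4 were higher and 1 lower. Under total counts these were 8 and 0, and 4 and 0. Of 7 tested B and plasma cell markers 1 was higher in each of these comparisons, and 4 and 2 were under total counts.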
